A study of Mus musculus with 9 samples.

Results

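CD8+ T cells stimulated for 6 h in the presence of 20 mM D-2-hydroxyglutarate (D-2HG) were compared with cells stimulated for 6 h without it, across all 10235 genes that passed a count filter of 55011 genes in the table. All genes entered, whatever their response. The cells were naive CD8+ T cells from the spleen of wild-type (WT) mice, and both groups carried the same stimulation, plate-bound antibodies against CD3 and CD28. D-2HG was present from the start of stimulation, and the label of the control libraries gives their treatment as not applicable, with no vehicle or osmotic control named. Each group had 3 libraries, and 3 further libraries of cells given 20 mM L-2-hydroxyglutarate (L-2HG), the mirror-image molecule, entered the same fit. The labels do not say whether the libraries of a group came from separate mice or cultures, so the p-values measure the spread between these libraries, which may be technical. Because RNA was measured in bulk, fewer expressing cells and less RNA per cell cannot be told apart.

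D-2HG is the product of mutant isocitrate dehydrogenases and resembles 2-oxoglutarate, the co-substrate of a large class of dioxygenases that hydroxylate proteins and demethylate histones and nucleic acids. A naive CD8+ T cell that receives antigen receptor and costimulatory signals enlarges before it divides. In those hours it raises transcription, nuclear transport, protein synthesis, mitochondrial import and nutrient uptake, and it rebuilds its surface receptors. The genes described here belong to these and other families outside the interferon response, the respiratory chain and the cytokines and cytotoxic molecules.

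Library depth and composition differed between libraries. The control libraries held between 1990896 and 5731885 counts, the D-2HG libraries between 2431371 and 4139601 and the L-2HG libraries between 562627 and 2562692. The predicted genes Gm10800 and Gm10801, which hold satellite repeats, took 1.43%, 5.35% and 0.91% of counts in the control libraries and 6.83%, 3.79% and 17% in the D-2HG libraries. Over 1914 olfactory, vomeronasal and trace amine receptor genes, which T cells are not known to use, the controls held 0.0617, 0.145 and 0.0363 CPM (counts-per-million values) per kilobase and the D-2HG libraries 0.195, 0.133 and 0.200. No 2 libraries of any of the 3 groups agreed within sampling noise, with chi-square values per degree of freedom between 5.26 and 34.6. These values include Gm10800 and Gm10801, and the part of these 2 genes in them was not tested. All 9 markers of CD8+ T cells passed the filter, among them Cd8a at 918 ± 205 CPM (mean ± SD, n = 3) in controls and 784 ± 59.4 with D-2HG, a difference that did not pass (adjusted p = 0.418). Of the 9, Cd8b1 (-0.89, adjusted p = 0.0138), Cd3e (-0.89), Cd3g (-0.73) and Trac (-0.63), a coreceptor chain and parts of the antigen receptor, were lower on the log2 scale and Themis (0.57) was higher. Under the 20 alternatives described below, Trac passed in 8, Themis in 7, Cd3g in 10 and Cd8b1 and Cd3e in 15 each. With exon length and GC trends removed, Cd8b1 and Trac did not pass and Themis stood at -0.08. The 9 markers summed to between 4233 and 6633 CPM in controls and between 3866 and 4309 CPM with D-2HG. None of the 4 neutrophil, 4 NK cell, 5 erythroid or 3 platelet markers passed it, and Fcgr1, S100a8, Hba-a2 and Ppbp were at 0 in all 6 libraries. The 5 dendritic cell markers summed to between 15.02 and 23.17 CPM in controls and between 23.05 and 39.28 CPM with D-2HG, and neither of the 2 that passed the filter was called. The 8 B cell markers summed to between 181.2 and 327.3 CPM in controls and between 139.7 and 144.0 CPM with D-2HG. Most of it was Ighm, which was lower with D-2HG (log2 fold change -0.92, adjusted p = 0.0114). Ighm passed under 16 of the 20 alternatives and not with exon length and GC trends removed. The B cell markers Ms4a1, Cd79a, Igkc and Pax5 did not pass the filter. The part of other cell types in the results was not tested.

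With D-2HG, 2278 of the 10235 genes (22.3%) passed an adjusted p of 0.05 in edgeR's quasi-likelihood test with Benjamini-Hochberg adjustment. Of these, 1205 (11.8%) were higher and 1073 (10.5%) were lower than in controls. The 3 values of each group did not overlap for 1129 of the higher and 1014 of the lower genes. These genes were picked for a small p-value, so this is no added support for the calls. The share of all tested genes without overlap is not given here. A change of at least 2-fold was reached by 619 of the higher and 288 of the lower genes, and the median log2 fold change over all tested genes was 0.036. These counts rested on single libraries. Without control replicate 3 there were 177 higher and 207 lower genes, without control replicate 1 there were 262 and 188, and without control replicate 2 there were 2109 and 2148. Leaving out D-2HG replicate 1, 2 or 3 gave 508 and 318, 652 and 406, or 383 and 258 genes.

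Higher genes were longer than lower genes. Summed exon length had a median of 6915 bases in the higher genes, 2684 bases in the lower genes and 4397 bases in genes that did not pass, and the higher genes had a median of 14 exons against 5 in the lower genes. When the tested genes were cut into 5 bins by exon length, 1.9% of the shortest bin (up to 2398 bases) were higher and 22.7% were lower. In the longest bin (7763 bases and more) 24.5% were higher and 2.0% were lower. The median log2 fold change was -0.47 in the shortest bin and 0.49 in the longest. Control replicate 2 lay on the side of the D-2HG libraries at both ends, with medians of -0.32 and 0.26 relative to the control mean. Control replicates 1 and 3 lay at 0.28 and 0.06 in the shortest bin. After the trend on exon length and GC content was removed within each library, 661 genes were higher and 989 lower, of which 593 and 608 had the same call before. With each library's log2 satellite share as a covariate, 36 genes were higher and 60 lower. The part of RNA quality, genomic DNA or repeat content in the length pattern was not tested, and values with the length and GC trends removed are given beside the families below.

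**Figure D1:**
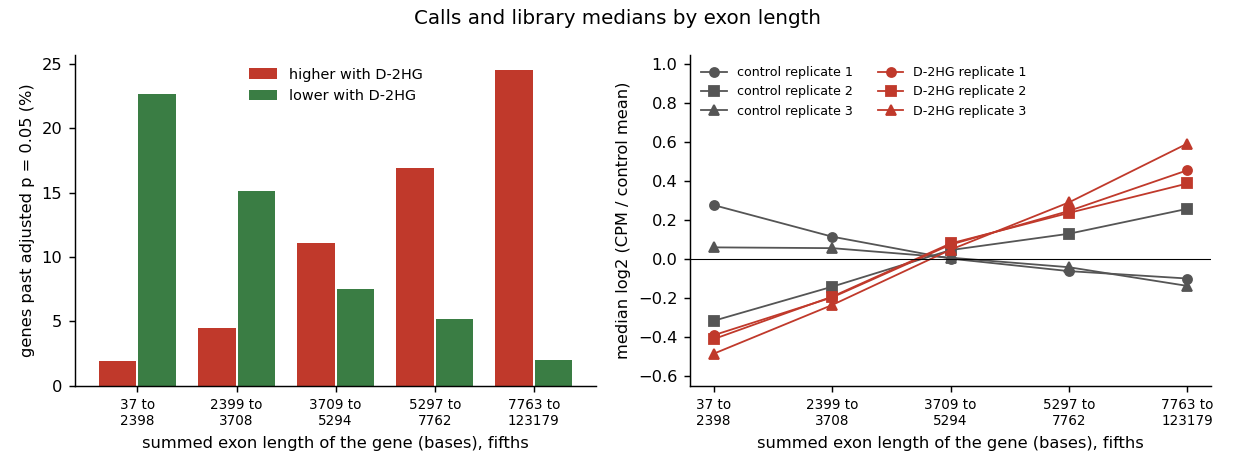
Left, share of tested genes past an adjusted p of 0.05 (y axis, percent) in 5 bins of summed exon length (x axis, bases), higher (red) or lower (green) with D-2HG. Right, median log2 ratio of CPM to the control mean in the same bins for each of the 3 control (grey) and 3 D-2HG (red) libraries; control replicate 2 tilts the same way as the D-2HG libraries, with -0.32 in the shortest and 0.26 in the longest bin.

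Promoters are shown for 3 genes with large changes that are described below and hold a searched motif, so that their changes can be read beside sequence. RefSeq promoters of 300 bases (250 before to 50 after the gene's start, GRCm38.p6) were matched for 19 of the 24 genes with the largest changes, 12 in each direction. Each was searched on both strands for the antioxidant response element core TGACNNNGC, the heat shock element units GAANNTTC, the E-box CACGTG and the amino acid response element TTGNATCA. At least 1 match was found in 4 of the 19, in the promoters of Gk, Golim4, Sec23a and Asns. Capitals mark the matches.
Gk, minus strand of chrX:85776770-85777069, E-box and antioxidant response element core: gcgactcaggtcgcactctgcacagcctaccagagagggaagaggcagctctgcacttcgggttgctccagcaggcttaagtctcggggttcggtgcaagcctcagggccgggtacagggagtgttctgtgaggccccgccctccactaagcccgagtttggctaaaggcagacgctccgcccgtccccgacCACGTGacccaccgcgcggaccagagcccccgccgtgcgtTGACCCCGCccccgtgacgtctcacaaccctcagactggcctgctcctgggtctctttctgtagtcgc
Golim4, minus strand of chr3:75956900-75957199, E-box: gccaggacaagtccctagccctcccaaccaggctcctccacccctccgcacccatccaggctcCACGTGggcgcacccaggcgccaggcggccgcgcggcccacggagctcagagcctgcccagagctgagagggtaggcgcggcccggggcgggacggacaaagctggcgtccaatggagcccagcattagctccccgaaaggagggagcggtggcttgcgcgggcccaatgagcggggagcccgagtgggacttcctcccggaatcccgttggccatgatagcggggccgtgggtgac
Asns, minus strand of chr6:7693160-7693459, antioxidant response element core and heat shock element units: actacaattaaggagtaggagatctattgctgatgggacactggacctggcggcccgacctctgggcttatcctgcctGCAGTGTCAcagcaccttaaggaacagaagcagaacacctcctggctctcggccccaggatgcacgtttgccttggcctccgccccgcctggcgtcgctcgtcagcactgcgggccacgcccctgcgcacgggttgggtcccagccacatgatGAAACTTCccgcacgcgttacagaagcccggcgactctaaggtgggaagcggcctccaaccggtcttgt
The antioxidant response element core began 18 bases before the start of Gk and 172 bases before the start of Asns, there on the reverse strand, and the E-box of Golim4 began 187 bases before its start. Sec23a held the antioxidant response element core 6 bases after its start. The antioxidant core was in 14.8% of the promoters of higher genes, 14.6% of lower genes, 14.3% of tested genes that did not pass and 12.4% of all 32851 promoters. The E-box was in 12.7%, 11.3%, 10.3% and 7.15% of the same sets. Heat shock element units were in 5.86%, 5.89%, 5.53% and 7.86%, and the amino acid response element in 1.55%, 2.1%, 1.6% and 2.67%. The share of all promoters with at least 1 of the 4 patterns is not given here, so 4 of 19 has no background beside it. Each element was searched as 1 letter pattern, so other forms of it would be missed, also in Asns. A match describes letters only, and no match says nothing about a factor.

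Glycerol kinase, zinc import and Golgi genes were among the largest increases. Gk encodes glycerol kinase, which phosphorylates glycerol for lipid synthesis and gluconeogenesis. It stood at 9.95, 15.5 and 7.42 CPM in the 3 control libraries and at 47.8, 50.7 and 68.6 CPM in the 3 D-2HG libraries, a log2 fold change of 2.41 ± 0.29 (SE; adjusted p = 4.14e-05). Genes named by size were picked among those whose groups did not overlap, so a gap between the groups is no added support for them. The highest value of Gk was in D-2HG replicate 3. Golim4 encodes a membrane protein that cycles between the Golgi and endosomes, and it rose from 10.9, 12.6 and 11.04 to 42.7, 57.1 and 53.3 CPM (2.16 ± 0.26, adjusted p = 3.30e-05). Its control values were close together and far below the D-2HG values. Slc39a10, a plasma membrane zinc importer, rose from 11.8, 14.1 and 7.42 to 38.2, 46.4 and 50.6 CPM (2.07 ± 0.28, adjusted p = 1.52e-04). The lowest value was in control replicate 3.

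Other large increases were in genes of low abundance. Hmox1, which encodes the inducible heme oxygenase, had the largest increase among the genes named by size (8.05, 2.91 and 4.16 against 32.3, 36.5 and 27.99 CPM, log2 fold change 2.62). Ercc6l, a DNA translocase of mitotic chromosomes, stood at 1.66, 3.39 and 1.45 CPM in controls and 8.94, 12.6 and 10.8 CPM with D-2HG. Sec23a, a coat protein of the vesicles that leave the endoplasmic reticulum, had control values of 2.13, 20.8 and 4.71 CPM and D-2HG values of 36.8, 37.2 and 25.7 CPM. Here control replicate 2 lay near the D-2HG libraries and far from the other controls, and the adjusted p was 0.0299. The remaining genes of the 12 largest increases were Rhoq, Gtf2ird1, Lrp12, Zfp667, Zfp607a and 9930111J21Rik1, with log2 fold changes between 2.10 and 2.41. Their control means were low, the highest being 3.43 ± 1.16 CPM (SD, n = 3) for Zfp667.

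The 12 largest decreases were in genes of varied roles. Spry2, an inhibitor of growth factor signalling to Ras, stood at 25.1, 14.5 and 22.3 CPM in controls and 3.78, 2.51 and 3.61 CPM with D-2HG (-2.69 ± 0.38, adjusted p = 1.85e-04). Rgs2, which shortens signals from G protein-coupled receptors, stood at 11.1, 8.72 and 7.78 against 1.72, 2.06 and 1.81 CPM (-2.27 ± 0.48, adjusted p = 0.00576). All control values of both genes lay above all D-2HG values, which was a condition for being named by size. The chemokine receptor Ccr8 fell from 31.7, 15.02 and 25.3 to 3.10, 6.39 and 4.51 CPM. Zbtb32, a transcriptional repressor of activated lymphocytes, fell from 24.4, 17.4 and 28.96 to 4.82, 6.39 and 5.42 CPM. Both were lowest among controls in control replicate 2. Vim, the intermediate filament vimentin, fell from 14.2, 23.3 and 22.1 to 5.50, 5.25 and 3.16 CPM (-2.04 ± 0.34, adjusted p = 0.00106). Asns, asparagine synthetase, fell from 16.8, 8.72 and 15.4 to 3.10, 5.25 and 1.35 CPM, the opposite direction to the amino acid transporter Slc38a2 described below. Dapl1, Zfp414, Kbtbd11, Tmem42, Lsp1 and AW112010 made up the rest of the 12, with log2 fold changes between -2.05 and -1.94.

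Of these 24 genes, 6 passed the threshold under all of 20 other ways of fitting the counts and 11 under at least 19. The 20 do not include a test against a 2-fold change, which asks for more than a difference and called 7 higher and 22 lower genes of all tested. A filter on a mean count of at least 50 removed or lost 17 of them, the satellite covariate lost 13, and leaving out control replicate 1 or 3 lost 5 or 4.

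Across all tested genes, 68 were called in the same direction under those 20 alternatives, 27 higher and 41 lower, again without the 2-fold test. This set was put together after its values were seen. The interferon, respiratory and cytokine lists hold 19 of the 68, none of them higher, and all 19 belong to the interferon list. The other 49 were 27 higher and 22 lower genes, and most of them are described by role in the next paragraphs. Exon length still differed between the directions, with a median of 8430 bases in the 27 higher and 3205 bases in the 41 lower genes.

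Nuclear genes among the 27 included nuclear transport, chromatin and splicing factors. Nup160, a scaffold subunit of the nuclear pore, rose from 23.4, 25.2 and 23.7 to 71.6, 81.5 and 125 CPM (1.94 ± 0.31, adjusted p = 0.00103). The 3 controls differed by less than 2 CPM and D-2HG replicate 3 was the highest. Kpna1, an importin alpha that carries cargo into the nucleus, rose from 73.9, 153 and 94.3 to 272, 267 and 321 CPM (1.43 ± 0.25), with control replicate 2 the highest of the controls. Morc3, a chromatin-bound ATPase, rose from 19.4, 52.8 and 29.5 to 110.4, 140.0 and 143 CPM (1.99 ± 0.34, adjusted p = 0.00291). The histone demethylases Kdm1b, which uses FAD, and Kdm2b, which uses 2-oxoglutarate, rose by 1.92 and 1.56 on the log2 scale. Prpf4b, a kinase of the spliceosome, stood at 46.8 ± 11.1 CPM (SD, n = 3) in controls and 154 ± 5.21 CPM with D-2HG.

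Golgi, endosome and cytoskeleton genes formed another group. Gcc1, a golgin that tethers vesicles at the trans-Golgi, rose from 5.68, 15.99 and 5.61 to 31.3, 34.7 and 27.1 CPM (1.91 ± 0.34, adjusted p = 0.00205). Washc2, the subunit that recruits the actin-nucleating WASH complex to endosomes, rose from 12.8, 27.6 and 17.7 to 48.9, 76.3 and 80.8 CPM (1.87 ± 0.28, adjusted p = 4.33e-04). In both genes control replicate 2 was the highest control and still below each D-2HG library. Man2a2, a mannosidase that trims N-glycans in the Golgi, rose by 1.57 on the log2 scale. Myo1c, a myosin that links membranes to actin, rose from 13.02, 18.4 and 9.77 to 46.1, 49.8 and 38.8 CPM (1.77 ± 0.25), and Nedd1, which brings the gamma-tubulin ring to centrosomes, from 10.2, 13.6 and 13.6 to 47.1, 39.3 and 37.9 CPM (1.74 ± 0.25). The peptidase Tpp2, which works downstream of the proteasome, rose by 1.86, the deubiquitinase Usp47 by 1.46 and Dcun1d4, which promotes cullin neddylation, by 1.58.

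Surface and uptake genes rose as well. Sema4d, a semaphorin on T cells, rose from 64.4, 90.6 and 52.1 to 242, 255 and 282 CPM (1.92 ± 0.24, adjusted p = 5.59e-05). The D-2HG values lay far above the controls, of which replicate 2 was the highest. Slc38a2, a transporter of small neutral amino acids, rose by 1.72 and the gut-homing receptor Ccr9 by 1.56. Soat1, which esterifies cholesterol for storage, rose from 38.4, 69.8 and 52.3 to 117, 124.0 and 98.9 CPM (1.10 ± 0.22, adjusted p = 0.00430). Hspa4l, Txnrd1, Ier3, Sec14l1, Prag1 and Uhrf1bp1l completed the 27, with log2 fold changes between 1.18 and 2.06. Ier3 was short, with 1131 bases of exon, unlike most of the higher genes.

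Among the 22 lower genes were leukocyte surface proteins and cytoskeletal partners. Lsp1, an actin-binding protein of leukocytes, fell from 176, 129 and 173 to 37.8, 41.3 and 41.5 CPM (-1.99 ± 0.24, adjusted p = 3.30e-05). The D-2HG values spanned less than 4 CPM. Cd52, a small glycoprotein anchored in the lymphocyte membrane, fell from 469, 264 and 414 to 146, 129 and 114 CPM (-1.56 ± 0.24). Il12rb1, the subunit shared by the receptors for interleukins 12 and 23, fell from 35.8, 38.3 and 30.9 to 9.63, 13.2 and 9.03 CPM (-1.68 ± 0.27, adjusted p = 7.94e-04). Each of these genes had its D-2HG values wholly below its control values, but they were picked for their calls, so this is no added support. Klrd1, the CD94 chain of NKG2 receptors, fell by 1.48 on the log2 scale and Cd200, a ligand that restrains myeloid cells, by 1.52. Itm2a, a membrane protein of activated T cells, fell from 699, 408 and 589.6 to 216, 235 and 194 CPM.

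Protease inhibitors, signalling brakes and metabolic enzymes were also among the 22. Serpinb6b and Serpinb9, intracellular serine protease inhibitors, of which Serpinb9 blocks granzyme B, fell from 226, 164 and 214 to 65.4, 70.8 and 53.7 CPM and from 287, 316 and 295 to 100.5, 119 and 129 CPM. The log2 fold changes were -1.67 ± 0.21 and -1.36 ± 0.21. Rgs16, like Rgs2 a brake on G protein signals, fell from 734, 759.9 and 794 to 286, 338 and 251 CPM (-1.39 ± 0.19, adjusted p = 1.40e-04). Tsc22d3, a glucocorticoid-induced leucine zipper protein, fell from 60.9, 47.98 and 60.1 to 27.5, 23.98 and 21.2 CPM (-1.22 ± 0.23). Bcat1, the cytosolic transaminase of branched-chain amino acids, which uses 2-oxoglutarate as amino acceptor, fell from 390.5, 361 and 409 to 166, 167 and 169 CPM (-1.21 ± 0.19, adjusted p = 6.95e-04). Its 3 D-2HG values lay within 4 CPM of each other. Hmgn2, a nucleosome-binding protein, fell from 73.9, 44.1 and 61.5 to 17.5, 19.9 and 14.4 CPM. Nudt19, Selenop, Cdyl2, Bcap29, Tmem42 and AW112010 also fell, as did Gm11346, Gm12250 and Gm45716. Their log2 fold changes ran from -0.89 for Bcap29 to -2.98 for Gm12250. Symbols of Gm and a digit were nearly all kept out of the lists, so these Gm genes are among the 22 by symbol only. Gm12250 lies near Igtp and Irgm2 of the interferon list on chromosome 11.

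**Figure D2:**
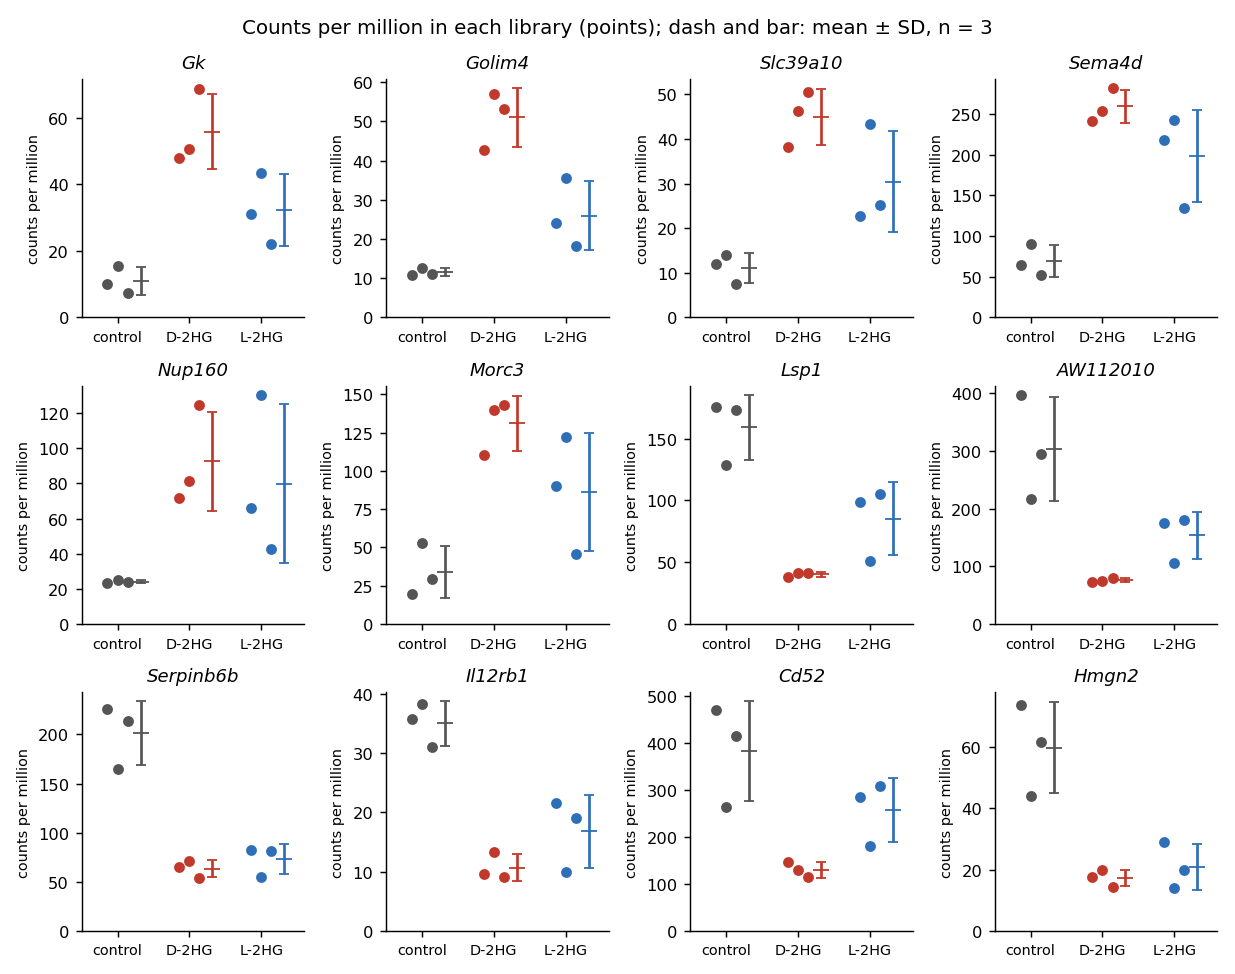
CPM (y axis, from 0) of 12 genes in each library of the control, D-2HG and L-2HG groups (x axis). Points are libraries and the dash with bar beside them is the mean ± SD (n = 3). In all 12 genes the 3 D-2HG points lie wholly above or wholly below the 3 control points. The genes were picked for their calls, some of them also for groups that did not overlap.

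For the families, members were taken by gene symbol and are given beside the background of 22.3% called and a median log2 fold change of 0.036 over all tested genes. Across 58 families, 49 had members called in both directions, and in all 49 the higher members had the longer median exon length. Removal of the length and GC trends left 50 of the 58 family medians on the same side of the median of all genes, and 8 changed side. Of the genes named below, Nup155, Nup205, Clock, Csnk1e, Pds5b, Polr2d, Polr2j, Sf3b1, Smg1, Snrpe and Spcs1 lost their call with these trends removed. So did Cblb, Nedd4, Chmp2a, Lamp2, Kif16b, Rasgrp1, Prkcq, Pik3cd, Piezo1, Braf, Tk1 and Phyh. These 2 lists are not complete, because not every named gene was compared singly. Lower nuclear pore members went from 5 to 2 and higher cohesin members from 7 to 3, so further named genes lost their call. With DESeq2's Wald test 13 of 58 changed side and without a count filter 16 did. With the satellite covariate no family had more than 2 members called. The counts of members called rested on single libraries as the count over all genes did, and are given without control replicates 1, 2 and 3 for 6 families of many calls.

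Nuclear pore and transport genes had the largest share of higher members among families of more than 20. Of 58 tested, 24 were higher and 5 lower, with a median log2 fold change of 0.51 (12 higher, 2 lower and a median of 0.23 with the length and GC trends removed). The library medians were -0.13, 0.18 and -0.04 in controls and 0.43, 0.40 and 0.47 with D-2HG. Without control replicate 1 or 3 there were 4 higher and no lower members, without D-2HG replicate 3 there were 5 and none, and without control replicate 2 there were 29 and 9. Scaffold and basket nucleoporins rose, among them Nup188 (1.04), Nup155 (0.97), Nup205 (0.93) and Nup153 (0.81). So did import and export carriers, among them Xpo7 (1.26 ± 0.24, adjusted p = 0.00346), Cse1l (1.25), which returns importin alpha to the cytoplasm, and Ipo11 (1.08). The 5 lower members were Nup37, Nup43, Sec13, Ran and Ranbp1. Ran, the GTPase that gives transport its direction, and its partner Ranbp1 fell by 0.63 and 0.64. Nup37, Nup43 and Sec13 belong to the same pore subcomplex as Nup160, which rose.

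Transcription and chromatin complexes were divided by subunit. Of 32 Mediator subunits, 4 were higher and 7 lower (2 and 8 with the trends removed). The higher ones were Med14, Med12, Med22 and Med1, and the lower ones included Med9 (-1.18 ± 0.26), Med11 (-1.13 ± 0.24) and Med7 (-1.07 ± 0.21). Median exon length was 8228.5 bases in the higher and 2871 bases in the lower subunits. Of 31 RNA polymerase subunits, 3 were higher and 5 lower (3 and 2 with the trends removed). Their share called was 25.8%, near the 22.3% of all genes. Large subunits Polr3a (1.01) and Polr1b (0.97) rose and the small Polr1d (-0.84), Polr2j (-0.72) and Polr2d (-0.75) fell. SWI/SNF, CHD and INO80 remodellers had 9 higher and 3 lower members of 42. None of the 42 was called higher, and 5 were lower, with the trends removed. Cohesin, which holds sister chromatids and shapes loops, condensin and related genes had 7 higher and no lower members of 21 (3 and 0 with the trends removed). Stag2 rose from 22.5, 47.01 and 22.98 to 75.7, 102 and 110.2 CPM (1.68 ± 0.33, adjusted p = 0.00499), and Esco1, Smc5, Stag1, Pds5a, Wapl and Pds5b rose by 1.58 to 0.71, with Pds5b past the threshold under 10 of the 20 alternatives.

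Zinc finger genes named Zfp, most of them DNA-binding repressors, had 45 higher and 3 lower members of 265, with a median of 0.38 (24 and 8, median 0.25, with the trends removed). The share called, 18.1%, was below the 22.3% of all genes, and the direction was almost all upward. Without control replicate 1, 2 or 3 there were 8, 83 or 7 higher members. Zfp715 rose from 6.87, 10.2 and 7.24 to 34.1, 23.7 and 25.7 CPM (1.82 ± 0.33, adjusted p = 0.00257). Zfp414, Zfp296 and Zfp330 were the 3 lower members. Of 17 clock genes, 4 were higher and none lower (2 and 1 with the trends removed), a share of 23.5% called. The 4 were Clock (1.14) and Arntl (0.97), the activating pair, Per2 (1.11), a repressor, and the kinase Csnk1e (1.01). Csnk1e passed under 10 of the 20 alternatives. Only 2 histone genes passed the filter, H3f3a and H3f3b, which encode the replication-independent histone H3.3, and both fell, by 0.66 and 1.07.

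**Figure D3:**
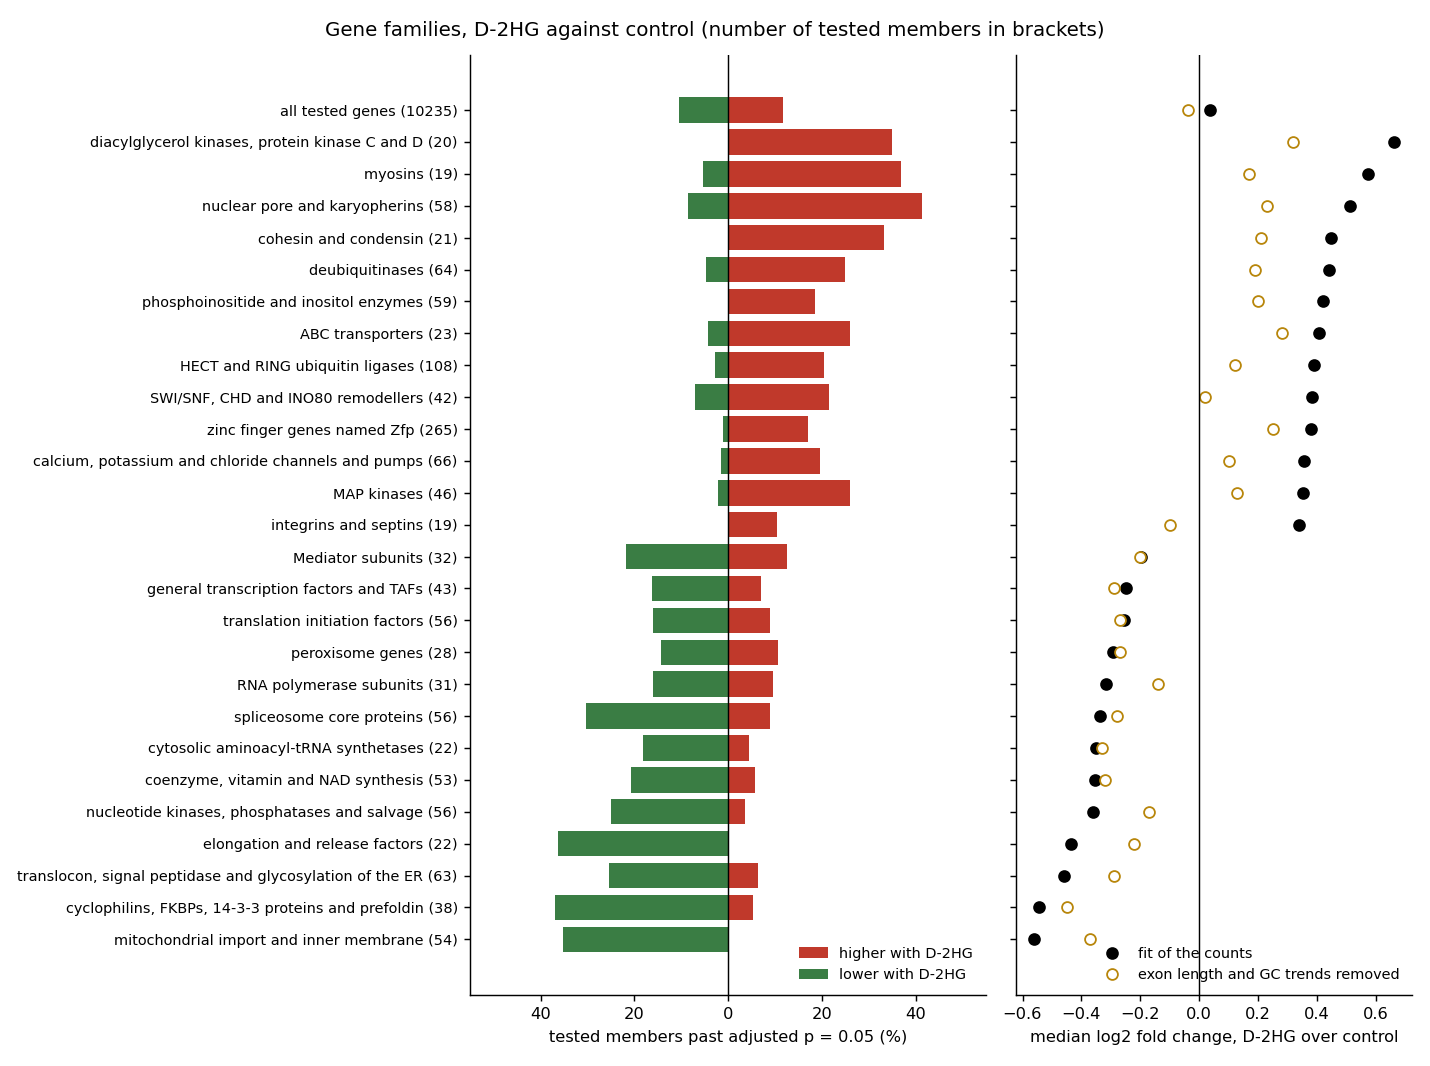
Left, share of tested members past an adjusted p of 0.05 (x axis, percent), higher (red, to the right) or lower (green, to the left) with D-2HG, for the 26 families of at least 18 tested members with the lowest and highest medians and for all tested genes. Right, median log2 fold change of the same families from the counts (filled) and with exon length and GC trends removed (open), where the medians of the upper families move toward 0 and that of integrins and septins changes sign.

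In RNA processing, the core spliceosome had 5 higher and 17 lower members of 56, with a median of -0.34 (4 and 11, median -0.28, with the trends removed). Without control replicate 1, 2 or 3 the lower members numbered 1, 25 or 2. Of the 17 lower members, 10 were small Sm and LSm ring proteins, among them Lsm5 (-1.03), Lsm6 (-0.97 ± 0.20, adjusted p = 0.00504), Snrpd2 (-0.88) and Snrpe (-0.78). Within the SF3B complex, which recognises the branch point, Sf3b1 (0.86) and Sf3b3 (1.29) rose while Sf3b5 (-0.80) and Sf3b6 (-0.99) fell. DEAD-box and DEAH-box helicases, which unwind RNA, had 15 higher and 4 lower members of 51 (11 and 5 with the trends removed). Ddx42 stood at 35.05, 108 and 36.6 CPM in controls and 145, 183 and 229 CPM with D-2HG, with control replicate 2 between the other controls and the D-2HG libraries. Of 60 genes of the exosome, decapping and deadenylation, 8 were higher and 4 lower (3 and 6 with the trends removed). The share called was 20.0%, against 22.3% of all genes. Edc4, a scaffold of mRNA decapping, rose from 45.7, 68.3 and 45.4 to 123.5, 125 and 118 CPM (1.22 ± 0.24, adjusted p = 0.00395), and Smg1, the kinase of nonsense-mediated decay, rose by 1.15.

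Families of protein synthesis, folding and import into mitochondria had more lower than higher members. Mitochondrial import and inner membrane organisation had 19 lower and no higher members of 54, with a median of -0.56 (16 and 0, median -0.37, with the trends removed). The library medians were 0.28, -0.31 and 0.08 in controls and -0.48, -0.55 and -0.56 with D-2HG. Control replicate 2 lay closer to the D-2HG libraries than to the other controls. Without it 38 members were lower, and without control replicate 1 or 3 only 1 or 2 were. Timm22, the core of the carrier translocase, fell from 81.5, 44.6 and 71.3 to 34.1, 32.7 and 23.03 CPM (-1.14 ± 0.26, adjusted p = 0.00813), and Chchd6, a cristae junction protein, from 19.9, 17.4 and 15.02 to 4.13, 9.36 and 4.51 CPM (-1.47 ± 0.34). The small carrier chaperones Timm8a1, Timm9, Timm10 and Timm13 fell by 0.89, 0.68, 0.69 and 0.65, and the outer membrane insertase Samm50 by 0.83.

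The prolyl isomerases (cyclophilins and FKBPs), 14-3-3 proteins and prefoldin had 14 lower and 2 higher members of 38, with a median of -0.54 (12 and 1, median -0.45, with the trends removed). Without control replicate 1 or 3 there was 1 lower member and none higher, and without control replicate 2 there were 27 and 2. Ppia (-0.86) and Ppib (-0.75), the abundant cyclophilins, fell, as did Fkbp2 (-1.03 ± 0.23, adjusted p = 0.00653) and the prefoldin subunits Pfdn1, Pfdn4 and Pfdn6, which pass unfolded actin and tubulin on to the chaperonin. Translation elongation and release factors had 8 lower and no higher members of 22 (5 and 0 with the trends removed). The 8 were methyltransferases of elongation factor 1 (Eef1akmt1, Eef1akmt2, Eef1akmt4), enzymes that make diphthamide on elongation factor 2 (Dph3, Dph5, Dph7), Eef1d and Eef1e1. Initiation factors had 9 lower and 5 higher members of 56 (10 and 3 with the trends removed), and Eif2ak4, the kinase GCN2 that senses uncharged tRNA, rose from 11.8, 14.1 and 10.9 to 24.4, 25.6 and 45.1 CPM (1.37 ± 0.29, adjusted p = 0.00569). Entry into the endoplasmic reticulum and its glycosylation had 16 lower and 4 higher members of 63, with a median of -0.46 (8 and 3, median -0.29, with the trends removed). Spcs1 (-0.85), of the signal peptidase, and Ssr4 (-0.80 ± 0.21), of the translocon, fell, and Dpm1 (1.26), which makes the mannose donor of the lumen, rose.

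Ubiquitin ligases and deubiquitinases had more higher than lower members. Deubiquitinases had 16 higher and 3 lower members of 64, with a median of 0.44 (8 and 5, median 0.19, with the trends removed). Without control replicate 1, 2 or 3 there were 3, 24 or 3 higher members. Cyld and Tnfaip3, both of which restrain NF-kB signalling, rose from 13.97, 26.7 and 17.9 to 56.8, 57.997 and 69.1 CPM (1.69 ± 0.32, adjusted p = 0.00322) and from 29.4, 72.7 and 33.3 to 124.2, 108 and 161 CPM (1.57 ± 0.33, adjusted p = 0.00731). The groups did not overlap in either gene, and control replicate 2 was the highest control in both. HECT and RING ligases had 22 higher and 3 lower members of 108, with a median of 0.39 (9 and 3, median 0.12, with the trends removed). Their share called, 23.1%, was near the 22.3% of all genes. Cbl (1.12) and Cblb (0.80), which dampen antigen receptor signals, and Nedd4 (1.41) were among the higher ones. Conjugating and activating enzymes had 2 higher and 2 lower members of 36 (1 and 4 with the trends removed), a share of 11.1% called. The 3 lower deubiquitinases included Psmd14 (-0.68) of the proteasome lid.

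Vesicle traffic families also had more higher than lower members. Rab GTPases and their regulators had 12 higher and 1 lower member of 93, but 8 and 8 with the trends removed. SNAREs, sorting nexins and VPS proteins had 14 higher and 6 lower of 114 (11 and 7 with the trends removed). Vps8, a tether of early endosomes, rose from 8.999, 13.1 and 7.42 to 35.1, 35.4 and 42.9 CPM (1.99 ± 0.34, adjusted p = 0.00121). Chmp2a (-0.81) and Chmp6 (-0.86), small subunits of the membrane-severing ESCRT-III complex, fell. Lysosomal genes had 3 higher and 2 lower members of 42 (2 and 3 with the trends removed), 11.9% against 22.3% of all genes. Lamp2, a major lysosomal membrane protein, rose from 53.3, 82.9 and 59.2 to 128, 138 and 136 CPM (1.06 ± 0.21, adjusted p = 0.00420), while the protease Ctss fell from 176, 106 and 151 to 50.6, 62.1 and 51.02 CPM (-1.40 ± 0.23, adjusted p = 0.00103).

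Myosins had 7 higher and 1 lower member of 19, with Myo10 (1.64 ± 0.31) and Myo1c leading (2 and 0 with the trends removed). Tubulins, kinesins and dyneins had 10 members in each direction of 69 (4 higher and 10 lower with the trends removed). The tubulins Tuba1a (-1.06) and Tuba1b (-0.90) and the dynein light chain Dynll1 (-1.03) fell, and the motors Kif3b (1.18) and Kif16b (1.11) rose. Actin nucleation, capping and turnover genes had 11 higher and 7 lower members of 65 (7 and 7 with the trends removed). Capg, which caps actin filaments, fell from 162, 84.8 and 128 to 48.5, 47.04 and 39.7 CPM (-1.47 ± 0.24, adjusted p = 7.93e-04), and Tmsb4x, which sequesters actin monomers, from 1814, 844 and 1472 to 629, 648 and 374 CPM.

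Diacylglycerol kinases and protein kinases C and D had 7 higher and no lower members of 20, with a median of 0.66 (2 and 0, median 0.32, with the trends removed). Prkci, an atypical protein kinase C, rose from 6.63, 5.33 and 4.16 to 15.8, 14.6 and 18.5 CPM (1.60 ± 0.32, adjusted p = 0.00430). Rasgrp1 (1.17), which activates Ras in response to diacylglycerol, and Prkcq (0.70), the protein kinase C of the T cell synapse, also rose. They passed under 13 and 12 of the 20 alternatives, and neither passed with the trends removed. Phosphoinositide enzymes had 11 higher and no lower members of 59 (5 and 2 with the trends removed), among the higher the leukocyte kinase Pik3cd (0.75). Their share called was 18.6%, against 22.3% of all genes. MAP kinases had 12 higher and 1 lower member of 46 (6 and 1 with the trends removed). Map3k1 rose from 14.9, 32.95 and 20.1 to 67.8, 63.02 and 96.6 CPM (1.78 ± 0.30, adjusted p = 0.00116). Of the Raf kinases, Braf rose by 1.33 and Araf fell by 0.70.

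Of 121 solute carriers 20 were higher and 8 lower, and of 66 channels and pumps 13 were higher and 1 lower. With the trends removed the counts were 15 and 7, and 5 and 4. The shares called, 23.1% and 21.2%, were near the 22.3% of all genes. Besides Slc39a10, the zinc importer Slc39a6 rose by 0.99, and Slc30a6, which carries zinc into the secretory pathway, fell by 0.88. The cation and chloride cotransporters Slc12a7 (1.11 ± 0.23, adjusted p = 0.00479) and Slc12a4 (0.97) and the mechanosensitive channel Piezo1 (0.93) rose. Slc9b2, a sodium and proton exchanger, fell by 1.31.

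Nucleotide kinases and salvage enzymes had 14 lower and 2 higher members of 56, with a median of -0.36 (11 and 1, median -0.17, with the trends removed). The purine salvage enzymes Hprt (-0.85) and Aprt (-0.79) and the adenosine kinase Adk (-0.75) fell together with the deoxyguanosine kinase Dguok (-1.04). Tk1, the thymidine kinase of dividing cells, rose from 10.2, 8.72 and 6.88 to 14.4, 12.3 and 23.5 CPM (0.94 ± 0.32, adjusted p = 0.0400), and passed under 9 of the 20 alternatives. Coenzyme synthesis had 11 lower and 3 higher members of 53 (10 and 1 with the trends removed), a share of 26.4% called. Of the 11 lower members, 5 make ubiquinone: Coq3, Coq4, Coq5, Coq7 and Pdss1. Coq7 fell from 47.6, 31.98 and 48.1 to 17.2, 15.3 and 14.9 CPM (-1.44 ± 0.26, adjusted p = 0.00208). Peroxisomal genes had 3 higher and 4 lower members of 28 (2 and 4 with the trends removed). Pecr (-1.30) and Phyh (-1.18) fell, the latter a 2-oxoglutarate-dependent hydroxylase.

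DNA repair genes had 14 higher and 4 lower members of 79, and 6 and 8 with the trends removed. Their share called was 22.8%, against 22.3% of all genes. Msh3 (1.56 ± 0.30, adjusted p = 0.00306), a mismatch sensor, and Rev1 (1.46), a translesion polymerase, rose, and Polb (-0.87) and Xrcc5 (-0.83), of base excision and end joining, fell. Caspases and apoptosis adaptors had 3 higher and 1 lower member of 37 (1 and 1 with the trends removed), a share of 10.8% called. In mTOR and AMPK signalling 4 of 49 were higher and 4 lower (2 and 4 with the trends removed), a share of 16.3% called. The lower ones included Lamtor1, Lamtor5 and Rraga of the lysosomal nutrient-sensing platform.

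L-2HG at the same dose and time differed from D-2HG for 31 of the 10235 genes (0.303%), 26 of them lower and 5 higher with D-2HG, and 29 of the 31 also differed between D-2HG and control. The interferon list holds 20 of the 31. Outside it, the 5 genes higher with D-2HG were Hmox1, Zfand2a, Rgs1, Hspa4l and Esd. Zfand2a, which encodes an arsenite-inducible partner of the proteasome, stood at 25.5, 24.2 and 23.9 CPM with D-2HG and 10.2, 5.92 and 9.04 CPM with L-2HG (D-2HG minus L-2HG, log2 1.42, 95% interval 0.82 to 2.03, adjusted p = 0.0302). Its controls, at 15.6, 17.4 and 19.003 CPM, lay between the groups, and D-2HG against control did not pass (adjusted p = 0.139). Rgs1 stood at 108, 76.1 and 88.3 CPM in controls, 62.6, 54.8 and 66.4 CPM with D-2HG and 25.2, 19.7 and 22.8 CPM with L-2HG (log2 1.39, 95% interval 0.90 to 1.88, adjusted p = 0.00612).

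Genes outside the interferon list that were lower with D-2HG than with L-2HG were Plec, Cd55, Lsp1, Kif21b, Gm11346 and Gm12250. Gm11346 and Gm12250 could not enter that list, because nearly all symbols of Gm and a digit were kept out of it. Gm12250 lies near Igtp and Irgm2 of that list on chromosome 11. Plec, a linker of intermediate filaments, stood at 31.02, 37.8 and 27.5 CPM in controls, 18.6, 13.2 and 9.03 CPM with D-2HG and 42.04, 27.6 and 43.8 CPM with L-2HG (log2 -1.52, 95% interval -2.11 to -0.93, adjusted p = 0.0181). Cd55, which protects cells from complement, stood at 25.6, 23.7 and 26.2, 11.4, 10.5 and 9.48 and 23.4, 19.7 and 31.9 CPM in the same order. In both genes the L-2HG values overlapped the control values and the D-2HG values lay below both. Kif21b, a kinesin, was at 35.1, 38.4 and 33.9 CPM with D-2HG, like the controls at 41.7, 41.7 and 35.1 CPM, and at 75.7, 92.8 and 70.9 CPM with L-2HG. For most genes described above no difference between the molecules passed the test, which does not show that they act alike. For Gk the difference was 0.88, 95% interval 0.28 to 1.48 (adjusted p = 0.386), for Golim4 1.09, 95% interval 0.55 to 1.63 (0.0907), for Spry2 0.11, 95% interval -0.96 to 1.18 (0.989) and for Nup160 0.32, 95% interval -0.33 to 0.96 (0.898). L-2HG replicate 2 held 562627 counts, the fewest of all libraries. Without it 35 genes differed between the molecules. Leaving out L-2HG replicate 1 or 3 gave 10 or 15 genes, leaving out D-2HG replicate 1, 2 or 3 gave 16, 16 or 13, and leaving out control replicate 2 gave 60.

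**Figure D4:**
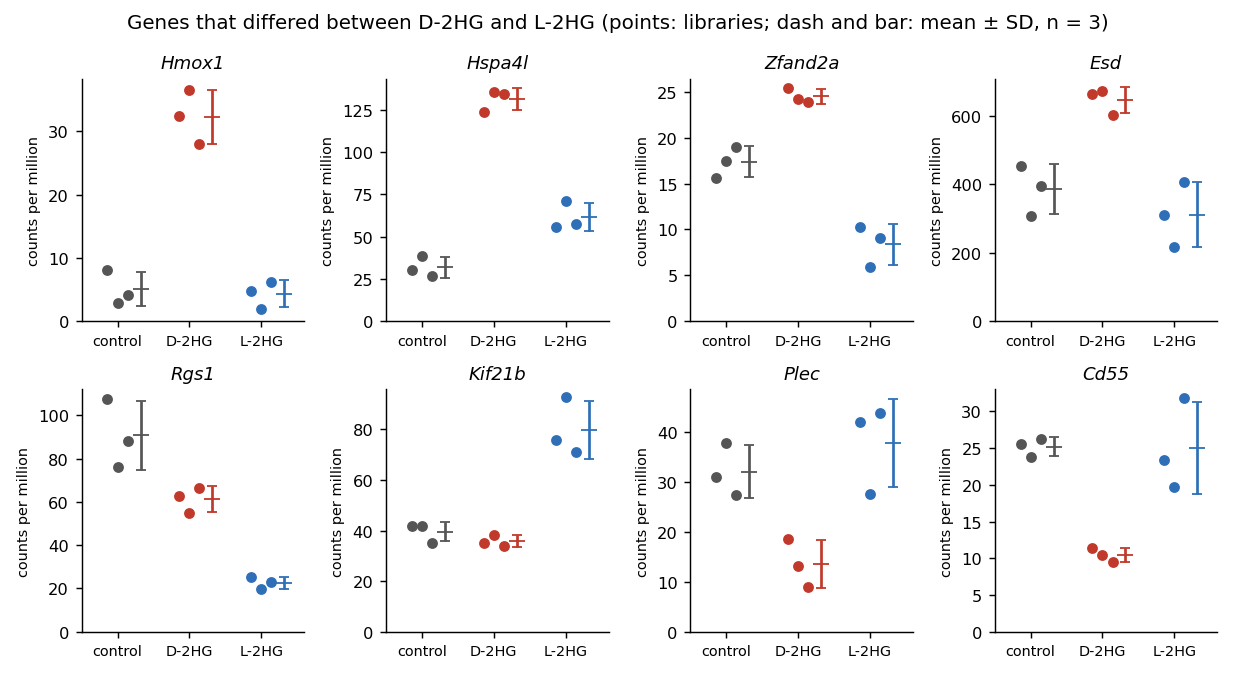
CPM (y axis, from 0) of 8 genes outside the interferon list that differed between D-2HG and L-2HG, in each library of the 3 groups (x axis). Points are libraries and the dash with bar is the mean ± SD (n = 3); Hmox1 is high with D-2HG alone of the groups, at 32.3, 36.5 and 27.99 CPM, and Kif21b with L-2HG, at 75.7, 92.8 and 70.9 CPM.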

How the data were processed

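RNA of 9 libraries was captured on beads, reverse transcribed from an oligo(dT) primer, amplified by PCR and cut with Tn5, per the labels' protocols. The deposited values are raw read counts per gene symbol. STAR 2.7.3a, featureCounts and the mm10 build are named in the submitters' processing notes, and the annotation release and strand setting are not given in the sources used here, so reads of overlapping genes, antisense genes and near-identical copies may be shared. The protocol names no molecular identifiers, so counts are not independent molecules.

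Genes were kept by edgeR's filterByExpr (minimum count 10) and scaled by TMM. All 9 libraries entered 1 robust quasi-likelihood fit (edgeR 4.0.16, R 4.3.3) with 6 residual degrees of freedom, with Benjamini-Hochberg adjustment over 10235 genes and a threshold of 0.05. Counts-per-million values (CPM) use TMM-scaled library totals. Fold changes are D-2HG minus control on the log2 scale with the SE of the fit and, where given, 95% intervals. Exon lengths are summed exons of GENCODE M21 (GRCm38), in which 253 of the table's symbols had no position. Promoters are from RefSeq.

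Genes named by size are the 12 largest changes in each direction among called genes. They had at least 5 CPM on average and groups that did not overlap. Symbols of Gm and a digit, symbols ending in Rik or -ps, and the interferon, respiratory and cytokine lists were left out. 9930111J21Rik1 does not end in Rik and so stayed in. Nearly all symbols of Gm and a digit were also kept out of every list. From each other family up to 3 called genes per direction with the smallest adjusted p could be named, and further members where they explain a count. The families and the genes described were chosen with earlier results of these data known, so no family count is independent support, and the symbol patterns of 3 families (histones, caspases, DNA repair) were corrected after the data were seen. Same-numbered control and D-2HG libraries did not deviate together (correlation of deviations 0.0341, -0.172 and -0.116), so no block was used. The correlations cannot show whether they shared mice or cultures, because differences in library composition also enter the deviations. Alternatives were limma-voom with sample weights (limma 3.58.1), DESeq2 1.42.0, other scalings and filters, the 6 libraries alone, a replicate block, a minimum change of 2-fold, covariates and each library left out. The fit was tested on simulated data. A few genes and 1 family are not reported here.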

Additional observations from a re-analysis of the deposited data

How the results depend on the processing

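The number of genes called moved by more than 1.5 times under several alternatives. The 1205 higher genes became 531 without a count filter and 661 with exon length and GC trends removed. The 1073 lower genes became 482 with library totals without TMM and 658 with the genomic DNA background subtracted. The satellite covariate left 36 higher and 60 lower genes, a test against a 2-fold change 7 and 22, and limma-voom with sample weights called 2976 and 2641. With 1 library left out, higher genes ranged from 177 to 2109 and lower genes from 188 to 2148. The 31 genes that differed between D-2HG and L-2HG became 177 with limma-voom, 49 with DESeq2's Wald test, 55 with the length and GC trends removed, 76 with the satellite covariate and 1 against a 2-fold change, and ranged from 10 to 60 with 1 library left out. The cause of these moves was not tested.

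DESeq2's Wald test gave 910 higher and 1314 lower genes, a share of higher genes among calls of 40.9% against 52.9%. That share was 70.0% with library totals, 60.4% with the genomic DNA background subtracted, 40.1% with the trends removed, 39.6% without a filter and 37.5% with the satellite covariate. The median log2 fold change of all genes was 0.161 in DESeq2 against 0.036. With a replicate block there were 1280 higher and 1034 lower genes and 35 between the molecules. The same-numbered libraries did not deviate together. Of the genes given with a value, 145 were compared singly, among them 3 that did not pass in the first place. The others were not compared in this way. Among the called genes of the 145, only Themis changed direction, to -0.08 with the length and GC trends removed. The cause was not tested. Of the 145, 132 lost their call against a 2-fold change, 102 with the satellite covariate and 26 with the trends removed. Without control replicate 1 or 3, 64 or 61 lost it, and without D-2HG replicate 3, 52 did.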
